A study of Mus musculus with 48 samples.

Results

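The genes described here make, sense, localise and break down cyclic AMP (cAMP), or carry its signal to the nucleus. They were all genes named alone by a probe set in the platform annotation whose symbol begins with Adcy and a digit, Prkac, Prkar, Akap, Pde and a digit, or Creb, or is Crem. The rule found 38 genes of 8251 named on the array, on 52 of 12422 probe sets, and used measured values only to keep the brightest probe set of a gene. There were 7 adenylyl cyclases, 5 subunits of protein kinase A (PKA), 9 A-kinase anchoring proteins, 12 genes named with the phosphodiesterases and 5 genes of the CREB group. Transcripts were measured on 48 one-colour arrays of mouse brain, 26 from hippocampus (8 CS, 8 FC and 10 NH) and 22 from amygdala (6 CS, 6 FC and 10 NH). The arm codes are not spelled out, and were read from the series title as the conditioned stimulus alone (CS), fear conditioning (FC) and naive home cage (NH). Strain, genotype, age, sex and the time after the session are not given in the labels. Nor do the labels state whether arrays hold separate or pooled animals. After its batch digit, an amygdala title can be read as a pair of animal numbers, and some of these numbers also title a hippocampus array of the same arm. Amygdala arrays may thus be pools that share animals with hippocampus arrays, yet the comparisons between tissues treated all arrays as independent. The p-values reflect the spread among these arrays alone, part of which may be technical.

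Adenylyl cyclases make cAMP when receptors activate the stimulatory G protein, and some also respond to calcium. cAMP releases the catalytic subunits of PKA from the regulatory subunits, anchoring proteins hold the kinase near its substrates, and phosphodiesterases end the signal. In the nucleus PKA phosphorylates CREB, which recruits the acetyltransferase Crebbp and switches on genes that carry a cAMP response element. In hippocampus and amygdala the pathway is known for its part in lasting synaptic change and long-term memory.

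The response element is shown here because the comparison of arms sets a responding CREB target, Fos, beside genes of the pathway itself. The letters searched were TGACGTCA (full element) and TGACG (its core, which the full element contains), on both strands, so the core also reads CGTCA. RefSeq promoters of GRCm38.p6, 250 bases before to 50 after a start, were matched for 28 of the 38 genes, at 58 starts. The core was in 14 of these promoters (24.1%) and in 20.8% of all 32851 promoters. Counted per gene, with any start, it was in 12 of the 28 members (42.9%) and in 23.0% of all 27025 genes, and genes with more starts have more chances to hold it. The full element was in 2 of the 58 promoters, both among the 6 starts of Prkar1a, and in 1.79% of all promoters. Fos holds the core at 2 places (chr12:85473640-85473939, + strand). Prkar1a, a regulatory subunit of PKA, holds the full element and a further core (chr11:109650699-109650998, + strand). Adcy9, a cyclase (chr16:4420449-4420748, - strand), and Prkacb, a catalytic subunit (chr3:146812897-146813196, - strand), hold 1 core each and differed between the tissues. For each gene 1 start was picked among those with a match, where Prkar1a has 6 starts in all, Prkacb 3 and Adcy9 1. Each promoter is printed 5′ to 3′ on the strand of its gene, with the matches in capitals, and a match describes letters, not binding.
Fos: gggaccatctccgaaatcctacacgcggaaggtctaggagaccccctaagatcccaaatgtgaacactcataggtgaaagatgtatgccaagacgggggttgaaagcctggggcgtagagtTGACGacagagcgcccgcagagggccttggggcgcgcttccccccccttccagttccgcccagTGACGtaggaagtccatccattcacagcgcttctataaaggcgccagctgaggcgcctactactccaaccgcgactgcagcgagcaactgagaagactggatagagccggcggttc
Prkar1a: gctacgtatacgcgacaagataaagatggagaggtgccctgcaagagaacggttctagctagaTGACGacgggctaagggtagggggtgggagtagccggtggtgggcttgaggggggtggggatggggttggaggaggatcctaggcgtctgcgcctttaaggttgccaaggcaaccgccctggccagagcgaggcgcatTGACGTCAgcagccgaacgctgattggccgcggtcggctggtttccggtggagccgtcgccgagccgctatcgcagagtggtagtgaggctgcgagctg
Adcy9: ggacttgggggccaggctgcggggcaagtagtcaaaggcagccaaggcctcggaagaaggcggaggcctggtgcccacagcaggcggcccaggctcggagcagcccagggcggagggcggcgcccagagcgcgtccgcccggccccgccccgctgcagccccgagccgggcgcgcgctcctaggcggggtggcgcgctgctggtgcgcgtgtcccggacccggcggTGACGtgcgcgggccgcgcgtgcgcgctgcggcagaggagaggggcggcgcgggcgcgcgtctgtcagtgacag
Prkacb: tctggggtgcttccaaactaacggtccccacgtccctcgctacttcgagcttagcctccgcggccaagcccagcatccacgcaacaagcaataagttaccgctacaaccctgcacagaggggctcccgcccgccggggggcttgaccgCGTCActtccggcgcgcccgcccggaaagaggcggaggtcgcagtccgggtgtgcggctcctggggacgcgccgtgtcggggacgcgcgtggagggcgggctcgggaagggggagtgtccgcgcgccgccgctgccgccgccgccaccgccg

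Levels are log2 of the deposited intensity, on which a difference of 1 is a doubling. Array medians of the intensity were 76.5 to 80.8 in hippocampus and 52.3 to 56.1 in amygdala, a gap that points to separate normalization of the tissues, which no label states. They were therefore compared by the percentile of a probe set among all probe sets of its own array. In each tissue the dimmest 40% of probe sets were not tested. Of the 38 genes, 27 passed this limit in hippocampus and 24 in amygdala, where Creb1, Pde6a and Pde8a fell below it. The 11 genes that passed in neither tissue were Akap2, Akap4, Akap7, Akap9, Akap12, Akap17b, Crebrf, Crem, Pde1c, Pde7a and Pde9a. Akap4, which anchors PKA in the sperm tail, had mean percentiles of 7.68 (hippocampus) and 7.62 (amygdala). Other known genes of the pathway, such as Adcy1, Adcy5, Prkar2b, Akap5, Pde4d and Pde10a, were not named alone by a probe set and were not analysed here. No percentile or level of one gene is set against that of another, since probe sets differ in how brightly they hybridise.

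**Figure D1:**
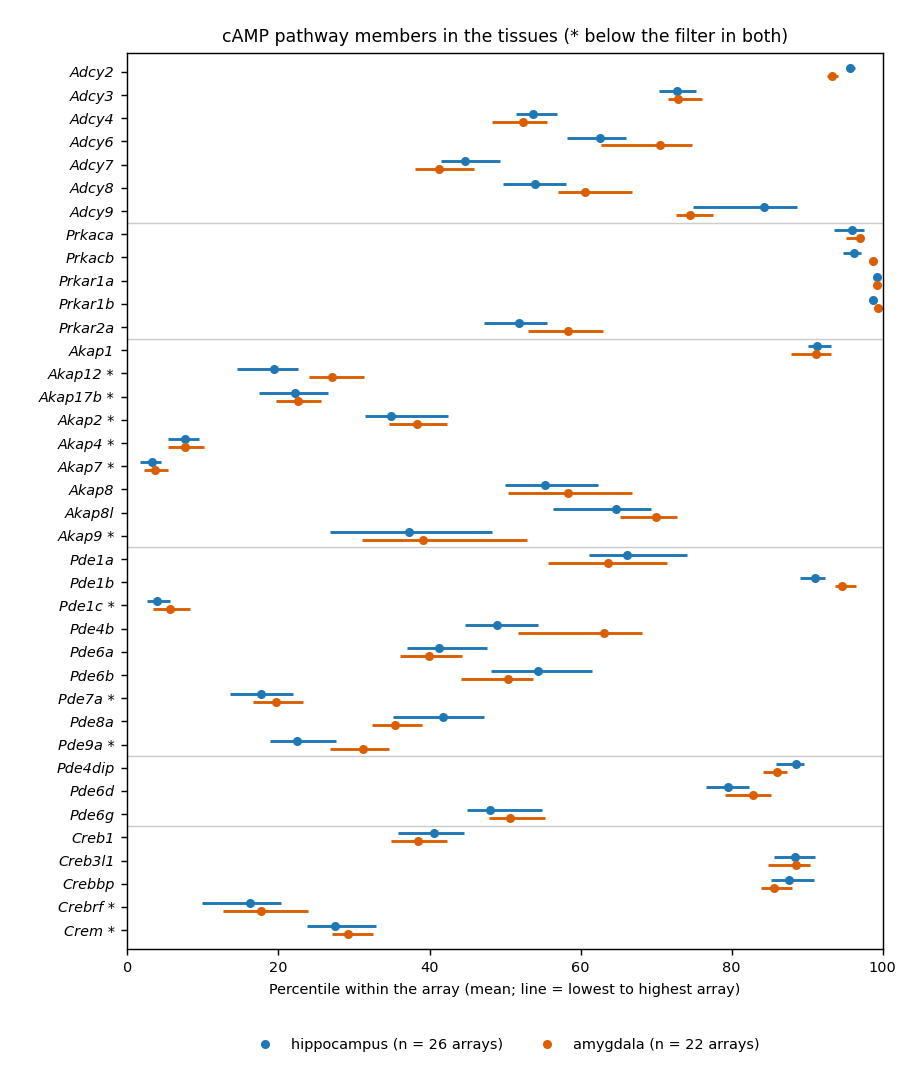
Mean percentile within the array (points) and lowest to highest array (lines) of each of the 38 genes in 26 hippocampus and 22 amygdala arrays, grouped by role, with an asterisk on the 11 genes below the filter in both tissues. The lines of the tissues lie apart for Adcy2, Prkacb, Prkar1b, Pde1b and Akap12.

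Amygdala and hippocampus differed in which cyclases, kinase subunits and phosphodiesterases stood higher. Both catalytic subunits of PKA, Prkar1b, Prkar2a, Adcy6, Adcy8, Pde1b and Pde4b lay higher in amygdala. Adcy9, Adcy2 and Pde8a, the last below the filter there, lay lower. The calls of the catalytic subunit Prkaca and of Prkar1b did not hold in every setting, as given with their values below. In all, 10 of the 27 members tested lay at a higher and 8 at a lower percentile in amygdala (limma on percentiles with the batch as a random block, adjusted p under 0.05). Of all 7666 probe sets tested, 43.1% passed, 22.4% higher and 20.7% lower. The median size of the difference was 2.56 percentile points over the members and 1.84 over all probe sets tested. A probe set was tested here if it passed the filter in at least 1 tissue. Creb1, Pde6a and Pde8a passed in hippocampus alone. Of the 24 members that passed in both tissues, 10 were higher and 6 lower in amygdala, where 40.5% of all such probe sets were called. Every processing batch holds 1 tissue only, so tissue and the separate processing of the tissues cannot be told apart. The small p-values below count arrays, while the tissues differ between 4 and 3 batches. Limma on batch means, a setting chosen after seeing the data, called 17 of the 27 members and 32.1% of all probe sets. It gave an adjusted p of 0.00268 for Adcy2, 0.00258 for Prkacb and 0.00298 for Pde1b, while Prkaca and Prkar1b lost the call. In tissue samples, fewer cells of a type and less RNA per cell cannot be told apart either. Percentiles compress differences near the top of an array, so log2 differences after quantile normalization of all 48 arrays together are given beside them.

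Among the cyclases, Adcy9 and Adcy2 were lower in amygdala and Adcy6 and Adcy8 higher. Adcy9, a cyclase with little sensitivity to forskolin, lay at percentiles from 74.9 to 88.7 (median 84.5) in hippocampus and from 72.6 to 77.5 (median 74.4) in amygdala. Apart from 1 hippocampus array, CS replicate 85, at 74.9, the tissues did not overlap. The difference was -9.64 ± 1.03 percentile points (SE, adjusted p = 1.43e-10), or -0.61 on the log2 scale, 1.52-fold lower. The second Adcy9 probe set differed by -19.2 ± 1.41 points, and its tissues did not overlap at all, at 69.9 to 81.8 against 50.6 to 60.4.

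Adcy2, which G protein beta-gamma subunits can stimulate, lay at 95.2 to 96.4 (median 95.7) in hippocampus and at 92.6 to 94.1 (median 93.3) in amygdala. Its tissues did not overlap, and the difference was -2.39 ± 0.212 points (adjusted p = 6.97e-13), 1.35-fold lower on the log2 scale. Adcy7, a relative of Adcy2, was also lower in amygdala (-3.40 ± 1.04 points, adjusted p = 0.00692), 1.13-fold on the log2 scale. Adcy6, which calcium inhibits, lay at 58.1 to 66.0 (median 62.4) in hippocampus and at 62.7 to 74.8 (median 71.8) in amygdala. Only 1 amygdala array, CS replicate 21523, lay inside the hippocampus range, and the difference was 8.21 ± 1.30 points (adjusted p = 1.35e-06, 1.33-fold higher). Adcy8, the cyclase stimulated by calcium and calmodulin, lay at 49.7 to 58.1 (median 53.8) and at 57.1 to 66.8 (median 59.9). Again 1 amygdala array overlapped, NH replicate 16970, and the difference was 6.79 ± 0.990 points (adjusted p = 2.47e-07, 1.25-fold higher). Adcy3, the cyclase of olfactory neurons and primary cilia, differed by 0.21 points (95% interval -0.98 to 1.41), and Adcy4 by -1.26 (-2.96 to 0.43). Neither passed the threshold.

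Of the 5 PKA subunits, 4 were higher in amygdala and Prkar1a was not called. Prkacb, the catalytic subunit beta, lay at 94.8 to 97.2 (median 96.3) in hippocampus and at 98.4 to 98.9 (median 98.7) in amygdala. No array of one tissue entered the range of the other, and the difference was 2.56 ± 0.250 points (adjusted p = 1.28e-11). On the log2 scale it was 1.02 ± 0.0595, or 2.02-fold. The catalytic subunit alpha, Prkaca, overlapped widely, at 93.5 to 97.5 (median 96.0) and 95.1 to 97.4 (median 97.1). Its difference of 1.03 ± 0.384 points (adjusted p = 0.0272, 1.20-fold) lost the call with NH arrays only (adjusted p = 0.151) and with batch means in place of arrays (adjusted p = 0.198).

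Prkar1b, a type I regulatory subunit found mainly in neurons, lay at 98.5 to 99.0 in hippocampus and 99.2 to 99.6 in amygdala, with medians of 98.7 and 99.4. The tissues did not overlap, and the difference of 0.74 ± 0.134 points (adjusted p = 1.53e-05) was 1.50-fold on the log2 scale. With batch means the percentile difference missed the threshold (adjusted p = 0.133), and the second Prkar1b probe set differed by 1.31 points in the same direction. Prkar2a, a type II regulatory subunit of the kind most anchoring proteins bind, lay at 47.2 to 55.5 (median 52.3) and 53.0 to 63.0 (median 58.4). Only 2 amygdala arrays lay inside the hippocampus range, and the difference was 6.61 ± 1.10 points (adjusted p = 3.31e-06, 1.24-fold higher). Prkar1a, the type I subunit with the full response element at 2 of its 6 starts, lay at 98.9 to 99.4 and 98.9 to 99.5, and its difference on the log2 scale was -0.01 (95% interval -0.12 to 0.10).

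**Figure D2:**
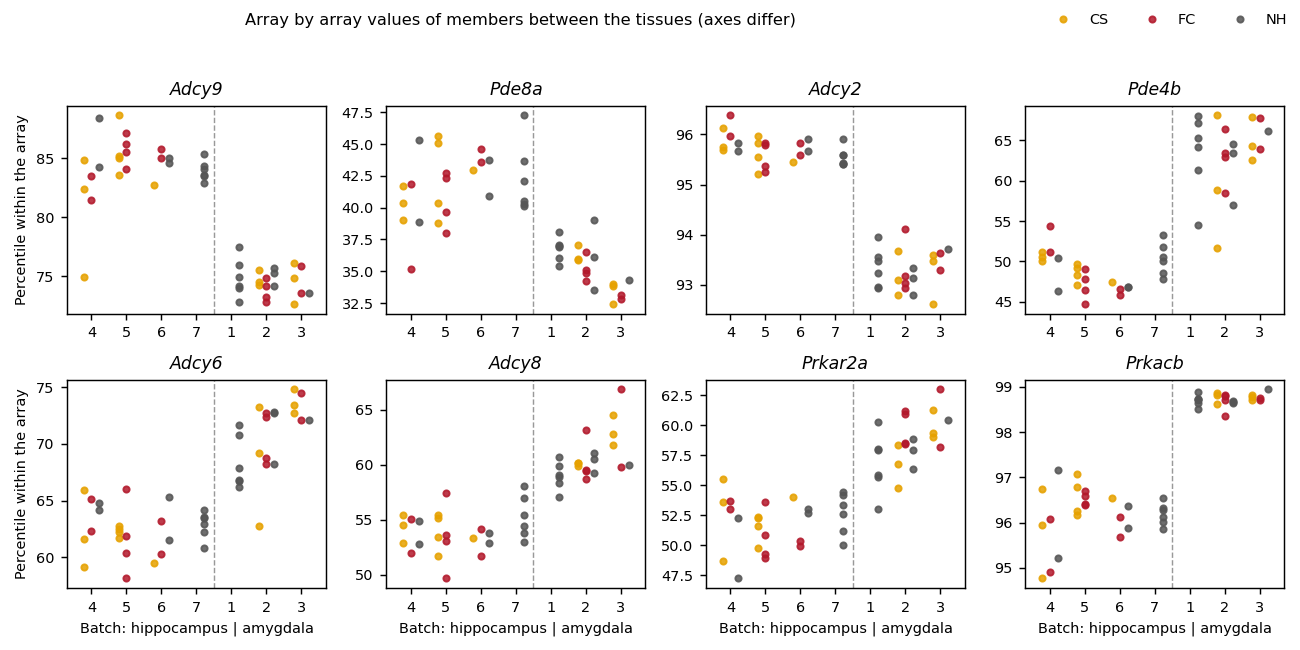
Percentile within the array of 8 genes (Adcy9, Pde8a, Adcy2, Pde4b, Adcy6, Adcy8, Prkar2a, Prkacb), 1 point per array, by processing batch (4 hippocampus, 3 amygdala) and coloured by arm. Prkacb and Adcy2 separate the tissues in every array, while Pde4b and Adcy6 each have 1 amygdala array inside the hippocampus range.

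With 1 probe set per gene, its brightest, the largest percentile difference among the tested members was that of Pde4b, a cAMP-specific phosphodiesterase and target of rolipram. It lay at 44.7 to 54.4 (median 48.8) in hippocampus and at 51.7 to 68.1 (median 64.0) in amygdala, a difference of 14.4 ± 1.78 points (adjusted p = 6.50e-09) and 1.62-fold on the log2 scale. The 1 amygdala array inside the hippocampus range was CS replicate 21523. Pde1b, which calcium and calmodulin stimulate, lay at 89.1 to 92.3 (median 91.2) and 93.7 to 96.5 (median 94.6), with no overlap. It differed by 3.49 ± 0.359 points (adjusted p = 5.72e-11, 1.45-fold higher). Pde8a, another cAMP-specific enzyme, was lower in amygdala, at 32.4 to 39.0 (median 35.7) against 35.2 to 47.3 (median 41.8) in hippocampus. Its ranges overlapped, and the difference was -6.59 ± 1.17 points (adjusted p = 9.84e-06, 1.28-fold lower). Pde8a was below the filter in amygdala and was tested only because it passed in hippocampus, where it was higher.

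Pde1a, the other tested calmodulin-dependent enzyme, gave opposite signs on its probe sets. The brighter differed by -2.87 ± 1.81 points (adjusted p = 0.204) and the dimmer by 4.39 ± 1.43 (adjusted p = 0.0115). Some names of the group stand for other functions. Pde6d, a prenyl-binding protein, was higher in amygdala (3.53 ± 0.662 points), and Pde4dip, the scaffold myomegalin, was lower (-2.49 ± 0.449). Pde6b, a subunit of the rod photoreceptor enzyme, was lower by -3.87 ± 1.52 points on a probe set whose suffix marks shared sequence, with -0.25 on its other set, and it lost the call with NH arrays only (adjusted p = 0.192). Pde6a (-1.32 points, 95% interval -3.41 to 0.77) and Pde6g (2.56, 0.31 to 4.81, adjusted p = 0.0600) were not called. Pde9a, a cGMP-specific enzyme below the filter, lay at 18.9 to 27.6 in hippocampus and 26.8 to 34.6 in amygdala, which overlapped.

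Of the anchoring proteins tested, Akap8l was called, and of the CREB group Creb1 and Crebbp. Akap8l, a nuclear relative of Akap8, lay at 56.4 to 69.3 (median 64.9) in hippocampus and 65.2 to 72.8 (median 70.2) in amygdala, which overlapped (5.40 ± 1.21 points, adjusted p = 2.96e-04). Akap12, a membrane scaffold below the filter, lay at 14.6 to 22.6 and 24.0 to 31.4, without overlap, and its mean percentiles were 19.5 and 27.1. Akap1, the mitochondrial anchor, differed by -0.17 points (-1.21 to 0.87), and its other probe sets pointed both ways, at -1.76 and 2.43, neither called. Akap8 differed by 3.10 (-0.76 to 6.96), and its other probe sets pointed both ways, at -4.87 and 7.68. Creb1, the factor that PKA phosphorylates, lay at 35.9 to 44.6 (median 40.8) and 34.9 to 42.3 (median 38.3). The ranges overlapped, and the call of its difference of -2.32 ± 0.912 points (adjusted p = 0.0364) was lost with NH arrays only (adjusted p = 0.178). Creb1 too was below the filter in amygdala and was tested because it passed in hippocampus. Its other probe sets, below the filter in both tissues, pointed both ways, at 1.27 and -1.72. Crebbp differed by -1.69 ± 0.643 (adjusted p = 0.0299) and lost the call on log2 values centred on the array median (-0.07, adjusted p = 0.394). The membrane-bound factor Creb3l1 differed by 0.12 (-1.27 to 1.51). Of the 27 members tested, 4 had no overlap between any arrays of the tissues, against 5.44% of all probe sets tested. Prkacb, Prkar1b and Pde1b were the 3 higher in amygdala (2.78% of all probe sets) and Adcy2 the 1 lower (2.66%).

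Marker lists of cell types moved with the tissues too, and their part in these differences was not tested. The mean percentile of 10 hippocampal neuron markers was 68.6 to 74.9 in hippocampus arrays and 47.3 to 49.7 in amygdala arrays, with 6 of 9 tested lower in amygdala and 3 higher. Of 5 striatal neuron markers measured, 2 passed the filter, Penk and Tac1, and both were higher in amygdala (list mean 35.9 to 39.4 against 45.2 to 48.3). The defining striatal markers Drd2 and Rgs9 lay at mean percentiles of 38.4 and 10.9 in hippocampus and 39.5 and 11.6 in amygdala. Oligodendrocyte markers were lower in amygdala for 4 of 5 tested (73.2 to 76.4 against 64.7 to 68.4), and choroid plexus markers for 2 of 3 (44.8 to 78.3 against 30.7 to 33.5). Astrocyte markers were higher for 1 and lower for 3 of 7 (85.0 to 87.9 against 82.6 to 86.1). Microglia markers were higher for 1 of 5 (64.4 to 68.9 against 64.5 to 69.6), and vessel markers higher for 1 and lower for 2 of 5 (54.9 to 59.9 against 54.9 to 58.3). Thalamus and hypothalamus markers were higher for 2 of 6 (69.0 to 72.3 against 70.2 to 75.1), and blood markers for 1 of 3 (61.8 to 68.2 against 64.9 to 69.0).

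Pde1b is known for high levels in striatal neurons, so its log2 level was set against the mean log2 level of the striatal markers. This was done across arrays, which share batches and arms. The mean was over all 5 markers measured, of which only Penk and Tac1 passed the filter in amygdala. Drd2, Rgs9 and Isl1 did not, with Isl1 at mean percentiles of 17.7 in hippocampus and 19.4 in amygdala. Which markers carried the relation was not tested. In the 22 amygdala arrays Pearson's r was 0.604 (permutation p = 0.00326, adjusted over 2 relations 0.00652) and Spearman's rho 0.452 (permutation p = 0.0351, adjusted 0.0703). Within batches 1, 2 and 3, of 6, 10 and 6 arrays, r was 0.389, 0.892 and 0.450. Without the 2 arrays farthest from the median marker level r was 0.405 (permutation p = 0.0762), which no longer passed, and with values centred on the batch mean it was 0.716 (permutation p = 3.3e-04). In the 26 hippocampus arrays r was 0.250 (permutation p = 0.220) and rho 0.0974 (permutation p = 0.635), and r was 0.133 without the 2 farthest arrays. Within batches 4, 5 and 7 it was -0.159, -0.258 and -0.162, and batch 6 held too few arrays.

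The second question of the design was whether the session changed these transcripts. Fos, an immediate early gene and CREB target, showed that the arrays registered a response. In hippocampus Fos lay at log2 levels of 6.54 to 7.03 (median 6.61) in CS, 6.66 to 6.91 (median 6.79) in FC and 4.85 to 6.12 (median 5.43) in NH. In amygdala it lay at 6.11 to 7.05 (median 6.33), 6.65 to 7.04 (median 6.83) and 4.64 to 5.58 (median 5.33). Every CS and FC array lay above every NH array of its tissue on this probe set, the brightest of Fos. The differences from NH, from limma within batches, were 0.98 ± 0.149 for CS and 1.09 ± 0.147 for FC in hippocampus, and 1.15 ± 0.149 and 1.53 ± 0.146 in amygdala (adjusted p from 1.44e-06 to 0.00433). The comparisons of CS and of FC with NH share their NH arrays. A second Fos probe set, below the filter in both tissues, did not separate the arms of hippocampus. Its medians there were 4.95 in CS, 4.92 in FC and 5.00 in NH, and the arms overlapped.

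No cAMP, PKA, phosphodiesterase or CREB gene passed the threshold in any of the 6 comparisons of arms. In hippocampus this was 0 of 27 members for CS against NH (0.0134% of all 7454 probe sets tested), FC against NH (0.0134%) and FC against CS (0%). In amygdala it was 0 of 24 for CS against NH (0.0134%), FC against NH (0.0939%) and FC against CS (0%). At an unadjusted p under 0.05, limma gave 1 member in hippocampus CS against NH, against 1.45% of all probe sets, and 0 in the other comparisons of hippocampus (2.27% for FC against NH and 0.765% for FC against CS). In amygdala it gave 2 members for CS against NH (3.92%) and 0 for FC against NH (5.15%) and FC against CS (1.23%). The median size of the members' differences was 0.0390, 0.0486 and 0.0269 in hippocampus for CS against NH, FC against NH and FC against CS, where all probe sets had 0.0404, 0.0456 and 0.0310. In amygdala it was 0.0496, 0.0477 and 0.0352 against 0.0513, 0.0524 and 0.0347.

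Differences had no common sign. Of the 27 members in hippocampus, 13 had an estimate above 0 for CS against NH, 14 for FC against NH and 16 for FC against CS, where all probe sets had 50.5%, 49.7% and 50.4%. Of the 24 in amygdala, 13, 14 and 14 did, where all probe sets had 53.8%, 55.2% and 51.8%.

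The intervals set what these data allow. The 95% interval of a member reached a median of 0.150, 0.148 and 0.113 to each side in the 3 hippocampus comparisons and 0.135, 0.133 and 0.120 in amygdala. The farthest bound of any tested member was 0.48 in hippocampus (Adcy9, CS against NH) and 0.35 in amygdala. Changes of a size that individual CREB targets showed could go uncalled here: in hippocampus FC against NH, Nr4a1 differed by 0.43 ± 0.0901 and Dusp1 by 0.38 ± 0.0819, both at an adjusted p of 0.215.

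**Figure D3:**
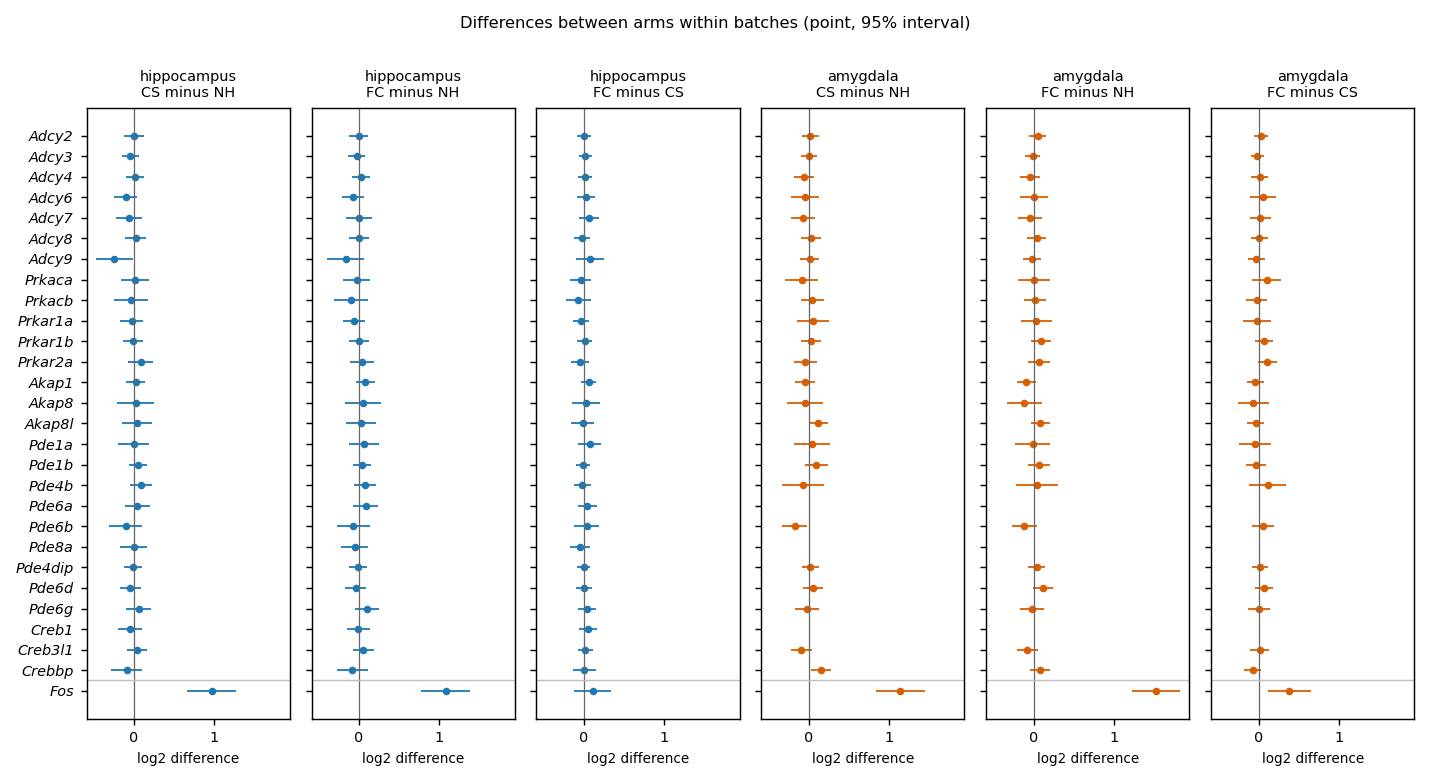
Log2 difference between arms with its 95% interval for every tested member and for Fos, in the 3 comparisons of each tissue, fitted by limma with batch as a block. The intervals of Fos against NH lie above those of all members shown, and only Adcy9 in hippocampus and Crebbp and Pde6b in amygdala have an interval that excludes 0, all in CS against NH.

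Among the cyclases, Adcy9 had the smallest p in hippocampus, and its estimate depended in large part on NH replicate 100 of batch 4. Its levels were 7.53 to 8.53 (median 8.05) in CS, 7.89 to 8.35 (median 8.13) in FC and 7.95 to 8.48 (median 8.08) in NH, so the arms overlapped throughout. CS minus NH was -0.25 ± 0.113 (95% interval -0.48 to -0.02, unadjusted p = 0.0377), with -0.42 in batch 4 and -0.14 in batch 6. Without NH replicate 100, the highest NH array, it was -0.10, and on the second Adcy9 probe set -0.04. Batch 4, which holds NH replicate 100, also holds CS replicate 85, the CS array with the lowest percentile of Adcy9. FC minus NH was -0.17 ± 0.111, with -0.33 in batch 4 and 0.09 in batch 6, and -0.04 without NH replicate 100. Adcy6 had the next smallest p among the lower members, at -0.10 (-0.25 to 0.04) in CS and -0.08 (-0.22 to 0.06) in FC. Its CS arrays lay at 6.75 to 7.05 (median 6.85), its FC arrays at 6.65 to 7.05 (median 6.87) and its NH arrays at 6.78 to 7.01 (median 6.94).

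Adcy8, the calcium-stimulated cyclase, lay at median log2 levels of 6.49 in CS, 6.45 in FC and 6.49 in NH in hippocampus, all between 6.26 and 6.65. Its differences from NH there were 0.02 (-0.11 to 0.15) in CS and 0.00 (-0.13 to 0.13) in FC. In amygdala its medians were 6.30, 6.23 and 6.22, between 6.11 and 6.56, with differences of 0.03 (-0.09 to 0.15) and 0.04 (-0.08 to 0.16). Adcy7 was among the higher members for FC against CS in hippocampus, at 0.07 (-0.06 to 0.19), with levels of 5.83 to 6.26 (median 6.02) in FC and 5.81 to 6.12 (median 5.97) in CS.

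None of the PKA subunits was called in a comparison of arms. Prkaca, the catalytic subunit alpha, lay at 9.23 to 9.80 (median 9.50) in CS, 9.05 to 9.84 (median 9.44) in FC and 9.43 to 9.81 (median 9.60) in NH of hippocampus. CS minus NH was 0.01 (-0.16 to 0.19) and FC minus NH -0.03 (-0.20 to 0.14). In amygdala it lay at 8.88 to 9.51 (median 9.43), 9.24 to 9.59 (median 9.47) and 9.04 to 9.53 (median 9.34), with differences of -0.09 (-0.29 to 0.11) and 0.01 (-0.19 to 0.21). All arms of Prkaca overlapped in both tissues.

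Prkacb, the subunit that separated the tissues, lay at 9.20 to 9.83 (median 9.67), 9.22 to 9.70 (median 9.57) and 9.32 to 9.91 (median 9.52) in hippocampus CS, FC and NH. FC minus NH was -0.10 (-0.31 to 0.11), and FC minus CS was -0.07 (-0.23 to 0.09). In amygdala its levels were 10.08 to 10.37 (median 10.19), 9.87 to 10.27 (median 10.22) and 10.03 to 10.24 (median 10.11). Differences from NH were 0.04 (-0.10 to 0.19) in CS and 0.02 (-0.13 to 0.16) in FC, and the arms overlapped.

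Prkar1a, with the full response element at 2 of its 6 starts, lay at medians of 10.97 in CS, 10.96 in FC and 10.97 in NH of hippocampus, between 10.59 and 11.16. It differed from NH by -0.03 (-0.17 to 0.11) in CS and -0.06 (-0.20 to 0.07) in FC. In amygdala its medians were 10.47, 10.50 and 10.51, between 10.17 and 10.82, with differences of 0.05 (-0.15 to 0.25) and 0.03 (-0.16 to 0.23). Where the Fos intervals against NH began at 0.67 or above, those of Prkar1a ended at 0.25 or below.

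Prkar1b lay between 10.41 and 10.67 in all arms of hippocampus, with medians of 10.54 in CS, 10.58 in FC and 10.54 in NH. In amygdala it lay at 10.57 to 10.91 (median 10.81) in CS, 10.55 to 10.92 (median 10.81) in FC and 10.49 to 10.82 (median 10.63) in NH, and FC minus NH was 0.09 (-0.03 to 0.21). Prkar2a, the type II subunit, lay at 6.22 to 6.59 (median 6.38), 6.22 to 6.47 (median 6.32) and 6.13 to 6.53 (median 6.42) in hippocampus, with CS minus NH of 0.09 (-0.07 to 0.24). In amygdala it lay at 6.01 to 6.30 (median 6.17), 6.14 to 6.40 (median 6.22) and 5.90 to 6.26 (median 6.14). FC minus CS of 0.11 (-0.01 to 0.23) had the smallest p among the members higher in that comparison, and the arms overlapped.

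**Figure D4:**
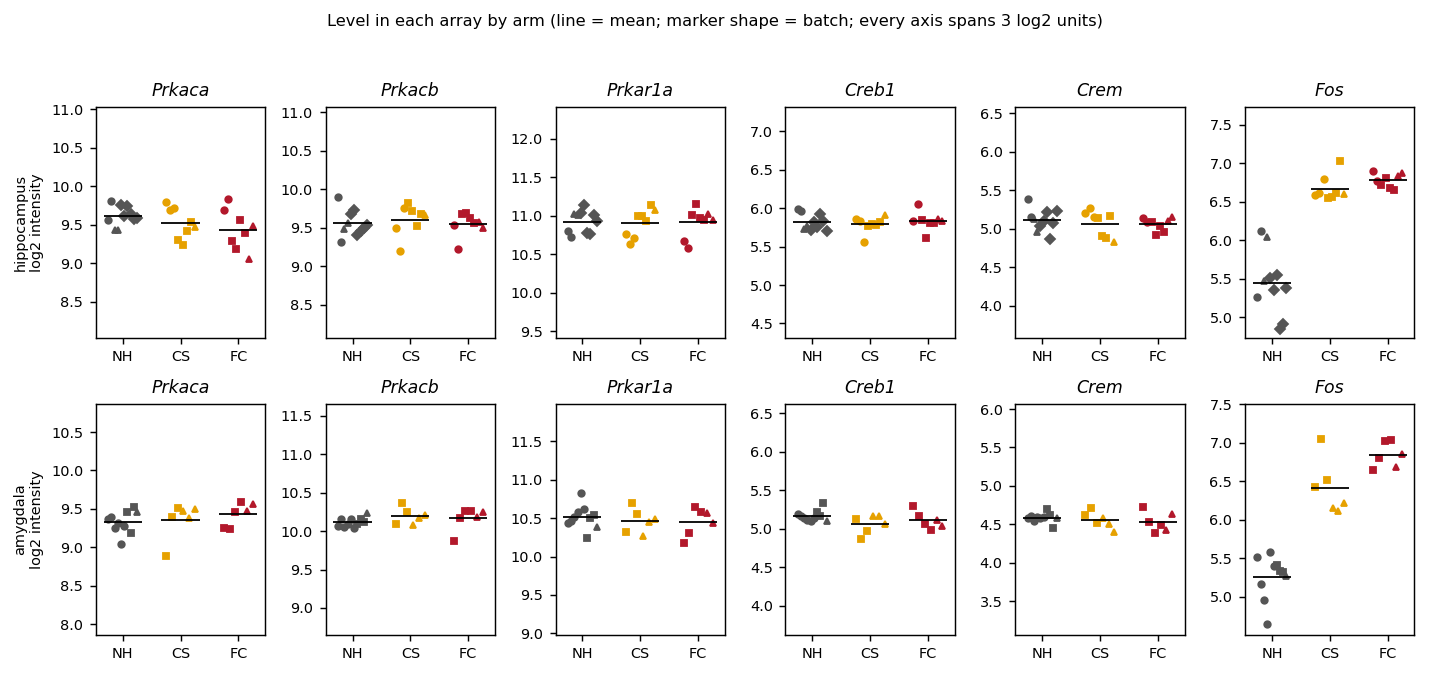
Log2 level of Prkaca, Prkacb, Prkar1a, Creb1, Crem and Fos in every array by arm and tissue, with each panel spanning the same 3 log2 units. CS and FC arrays of Fos lie above all NH arrays of their tissue, while the arms of the other 5 genes overlap.

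Among the phosphodiesterases, Pde4b lay at 6.12 to 6.34 (median 6.24) in CS, 6.00 to 6.54 (median 6.16) in FC and 6.08 to 6.43 (median 6.25) in NH of hippocampus. CS minus NH was 0.09 (-0.05 to 0.23) and FC minus NH 0.07 (-0.06 to 0.21). In amygdala it lay at 5.87 to 6.66 (median 6.41), 6.16 to 6.64 (median 6.42) and 5.97 to 6.60 (median 6.46), with differences of -0.07 (-0.34 to 0.19) and 0.04 (-0.22 to 0.30). Pde1b, which also overlapped between arms, differed from NH by 0.05 (-0.07 to 0.16) in CS and 0.04 (-0.07 to 0.15) in FC of hippocampus. Its amygdala levels were 8.71 to 9.19 (median 8.83) in CS, 8.83 to 8.89 (median 8.86) in FC and 8.56 to 8.93 (median 8.71) in NH, with differences of 0.09 (-0.05 to 0.23) and 0.06 (-0.07 to 0.20).

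Pde6d, the prenyl-binding protein, lay at 7.44 to 7.72 (median 7.62) in FC and 7.22 to 7.63 (median 7.41) in NH of amygdala. FC minus NH was 0.12 ± 0.0603 (95% interval -0.01 to 0.24), with 0.07 in batch 2 and 0.23 in batch 3. It was the only member to pass under an alternative, at 0.20 without a batch term (adjusted p = 0.0482, with 211 probe sets called in all) and 0.16 with array weights (adjusted p = 0.0198, with 911 called). Over all settings tried its adjusted p ran from 0.0198 to 1.00. Pde6b lay at 5.39 to 5.87 (median 5.78) in CS, 5.59 to 5.97 (median 5.77) in FC and 5.70 to 5.94 (median 5.80) in NH of amygdala. CS minus NH was -0.18 ± 0.0767 (-0.34 to -0.02, unadjusted p = 0.0303), -0.11 without CS replicate 23139, and -0.06 on its other probe set. FC minus NH of Pde6b was -0.12 (-0.28 to 0.04). In hippocampus Pde6g lay at 6.04 to 6.38 (median 6.20) in FC and 6.01 to 6.51 (median 6.20) in NH, with FC minus NH of 0.10 (-0.05 to 0.25).

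The anchoring proteins included Akap1, whose probe sets disagreed in amygdala. The brightest lay at 8.07 to 8.39 (median 8.24) in FC and 8.16 to 8.38 (median 8.25) in NH, with FC minus NH of -0.09 (-0.21 to 0.03). Another Akap1 probe set differed by 0.20 ± 0.0671 (0.06 to 0.34, unadjusted p = 0.00699, adjusted p = 0.840) in the same comparison. In hippocampus the brightest set lay at 8.64 to 8.90 (median 8.80) in FC, 8.61 to 8.94 (median 8.72) in CS and 8.64 to 8.82 (median 8.70) in NH. FC minus NH was 0.08 (-0.04 to 0.20), with 0.13 (0.01 to 0.26) on the other set, and FC minus CS 0.06 (-0.03 to 0.15). Akap8l in amygdala lay at 6.73 to 6.92 (median 6.83) in CS, 6.65 to 6.88 (median 6.81) in FC and 6.47 to 6.79 (median 6.68) in NH. The arms overlapped, and its difference from NH was 0.12 ± 0.0581 in CS (unadjusted p = 0.0506) and 0.08 (-0.04 to 0.20) in FC.

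In the CREB group, Creb1 lay at 5.56 to 5.91 (median 5.81) in CS, 5.61 to 6.05 (median 5.84) in FC and 5.71 to 5.99 (median 5.80) in NH of hippocampus. CS minus NH was -0.05 (-0.20 to 0.10) and FC minus NH -0.01 (-0.15 to 0.14). Another Creb1 probe set, below the filter, gave FC minus NH of 0.18 ± 0.0751 (0.03 to 0.34, unadjusted p = 0.0211), with 0.23 in both batch 4 and batch 6, and a further one gave 0.02 (-0.16 to 0.19). In amygdala, where Creb1 was below the filter, it lay at 4.86 to 5.17 (median 5.10), 4.98 to 5.30 (median 5.09) and 5.10 to 5.34 (median 5.15), and all arms overlapped. Crem, which also encodes the inducible repressor ICER, was below the filter in both tissues. Its medians were 5.15, 5.09 and 5.11 in CS, FC and NH of hippocampus and 4.55, 4.51 and 4.59 in amygdala, all overlapping between arms. The fit without a filter gave Crem differences from NH of -0.07 (-0.23 to 0.10) and -0.06 (-0.22 to 0.11) in hippocampus and -0.02 (-0.15 to 0.12) and -0.05 (-0.19 to 0.08) in amygdala. Its other probe set, also below the filter, gave FC minus CS of -0.13 (unadjusted p = 0.0466) in amygdala. The annotation does not say which Crem isoforms the probe set reads.

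Crebbp, the acetyltransferase that phosphorylated CREB recruits, had the smallest p of the members in amygdala. It lay at 7.72 to 7.92 (median 7.76) in CS, 7.58 to 7.85 (median 7.72) in FC and 7.59 to 7.92 (median 7.69) in NH, so all arms overlapped. CS minus NH was 0.16 ± 0.0606 (0.03 to 0.28, unadjusted p = 0.0161, adjusted p = 0.942), with 0.19 in batch 2 and 0.14 in batch 3. FC minus NH was 0.08 (-0.04 to 0.20) and FC minus CS -0.08 (-0.19 to 0.03). In hippocampus Crebbp lay at 8.15 to 8.52 (median 8.36), 8.15 to 8.58 (median 8.36) and 8.19 to 8.75 (median 8.31), with differences from NH of -0.09 in both CS (-0.29 to 0.10) and FC (-0.28 to 0.11). Without NH replicate 100 these estimates were 0.06 and 0.05. Creb3l1 in amygdala lay at 7.73 to 8.12 (median 8.04) in CS and 7.81 to 8.12 (median 7.98) in NH, with CS minus NH of -0.09 (-0.22 to 0.04).

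Whether a difference between arms itself differed between the tissues was tested in a joint fit. None of the 24 members tested in both tissues passed in any of the 3 comparisons, nor did any of 7242 probe sets (0%). The smallest p among the members was that of Crebbp for CS against NH, 0.25 higher in amygdala (95% interval 0.02 to 0.48, unadjusted p = 0.0375). The hippocampus estimate of Crebbp changed sign without NH replicate 100, as given above, and the joint fit was not repeated without that array. Akap1 followed for FC against NH, at -0.17 (-0.34 to -0.01, unadjusted p = 0.0409), on its brightest probe set alone, while its probe sets disagreed in amygdala as given above. At an unadjusted p under 0.05 the fit gave 2.53% of all probe sets for CS against NH, 3.42% for FC against NH and 1.37% for FC against CS.

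Other genes of the pathway were taken from lists of its upstream receptors and G proteins, its effectors and CREB's targets. The lists were chosen with earlier results of these data known, so counts and medians over them are no independent support. None of 23 upstream genes in hippocampus and 24 in amygdala, and none of 19 and 18 effectors, passed in any comparison of arms. Among the upstream genes with the smallest p were Gnai3, an inhibitory G protein (0.11 for CS against NH in amygdala, unadjusted p = 0.0351), and Drd4, a dopamine receptor (0.14 for FC against CS in hippocampus, unadjusted p = 0.0224). Among the effectors, Atf4, a relative of CREB, differed by 0.13 for FC against NH in amygdala (unadjusted p = 0.0273). Of the CREB targets, Fos was called for CS and FC against NH in hippocampus, 1 of 30 each, and for CS against NH in amygdala, 1 of 31. Each of these comparisons called 0.0134% of all probe sets. For FC against NH in amygdala 6 of 31 rose, against 0.0939% of all probe sets: Fos, Junb (0.53 ± 0.0573), Dusp1 (0.54 ± 0.0818), Nr4a1 (0.44 ± 0.0609), Egr2 (0.43 ± 0.0820) and Egr1 (0.41 ± 0.0755). The median difference of the CREB targets there was 0.10 beside 0.01 over all probe sets, while that of the upstream list was -0.01 and of the effectors 0.00. Marker lists of cell types had medians of like size in that comparison, with no gene called: 0.13 for 5 microglia markers (3 at an unadjusted p under 0.05) and for 4 oligodendrocyte markers, 0.09 for 2 striatal and 0.08 for 5 hippocampal neuron markers. The medians were 0.01 for 7 astrocyte, -0.01 for 5 vessel, -0.02 for 3 blood and -0.08 for 6 thalamus and hypothalamus markers, and 1 choroid plexus marker differed by -0.10. Their part in the differences between arms was not tested. No CREB target was called for FC against CS in either tissue, where Junb in amygdala had the smallest p (0.23 ± 0.0517, unadjusted p = 1.81e-04).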

How the data were processed

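Values were taken as the authors deposited them, as intensity on a linear scale, made with RMA per the submitters' processing notes; its version is not given in the sources used here. The deposited intensity was turned into log2 with nothing added. Array controls (66 of 12488 probe sets) were left out; 10833 probe sets name 1 gene, 396 several and 1193 none, and 37 of the 38 members had an entry in RefSeq GRCm38.p6. Arrays were grouped by the tissue, arm and batch in the labels. Arms were compared within each tissue with limma 3.58.1 in R 4.3.3 (lmFit, eBayes), with terms for the 3 arms and a fixed block for batch, and p-values adjusted by Benjamini and Hochberg over all 7454 probe sets tested. All tests were two-sided. Batches that hold only NH arrays (batch 7 in hippocampus and batch 1 in amygdala) add to the spread but not to a difference. Tissues were compared on percentiles with the batch as a random block (duplicateCorrelation, correlation 0.260). Correlations used 100000 permutations. The fit was tested on simulated data. Arrays of a tissue correlated at r of at least 0.982 in hippocampus and 0.987 in amygdala, and the number of arrays limits the precision. The planned relations of Pde10a and Adcy5 with striatal markers were not run, since no probe set names them alone. Values are given for the 2 members with the smallest p in each direction of a comparison of arms, the 6 with the largest tissue differences in each direction, and a neuronal core of the pathway; other members are given by range or count. The members, lists and tests were chosen with earlier results of these data known.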

Additional observations from a re-analysis of the deposited data

Results flagged for a closer look

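In 12 of 120 groups checked (20 genes in 6 groups of arrays), 1 array stood apart from the others of its arm and tissue by Dixon's test. Chance marks about 1 group in 20 where genes are not picked by their values. These genes were the neuronal core and those with the smallest p in a comparison of arms, which an array apart can bring about. The count is thus not comparable with that rate. Values are log2 levels. In hippocampus CS, replicate 109 was the highest for Adcy6 at 7.05 (others 6.75 to 6.88) and the lowest for Creb1 at 5.56 (others 5.77 to 5.91), and replicate 105 was the highest for Akap1 at 8.94 (others 8.61 to 8.74). In hippocampus FC, replicate 113 was the lowest for Prkacb at 9.22 (others 9.50 to 9.70). In hippocampus NH, replicate 100 was the highest for Adcy9 at 8.48 (others 7.95 to 8.19) and for Crebbp at 8.75 (others 8.19 to 8.46), and replicate 66 for Pde6g at 6.51 (others 6.01 to 6.25). In amygdala CS, replicate 23139 was the lowest for Creb3l1 at 7.73 (others 7.98 to 8.12) and for Pde6b at 5.39 (others 5.74 to 5.87), and replicate 21523 for Prkaca at 8.88 (others 9.38 to 9.51). In amygdala FC, replicate 21927 was the lowest for Prkacb at 9.87 (others 10.17 to 10.27). In amygdala NH, replicate 299141 was the highest for Creb1 at 5.34 (others 5.10 to 5.21).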

How the results depend on the processing

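The count of members past the threshold in a comparison of arms was 0 under every filter, block, normalization and probe set rule tried, apart from FC against NH in amygdala, where 1 member, Pde6d, passed without a batch term and 1, again Pde6d, with array weights. Leaving out 1 array at a time gave 0 to 0 members in each comparison. The striatal marker relation of Pde1b turned to -0.139 in hippocampus with values centred on the batch mean (0.716 in amygdala), and in amygdala fell to 0.405 without the 2 farthest arrays. Members called between the tissues numbered 15 to 23 over the settings, which tested from 22 to 38 members. Without a batch term 22 of 27 members and 65.3% of all probe sets were called. Batch means called 17 of 27 members and 32.1% of all probe sets, and the filter passed in both tissues 16 of 24 and 40.5%. Both of these settings were chosen after seeing the data. The NH arrays alone gave 15 of 27 members, beside 2617 of all 7666 probe sets tested. Log2 values centred on the array median gave 11 members higher and 7 lower of 27, beside 3680 of 7666 probe sets. No filter gave 15 higher and 8 lower of 38, beside 5251 of 12422 probe sets. Single members changed their side of the threshold in 15 values (9 newly called, 6 lost) and kept it in 2232; a change of sign was counted only where an interval excluded 0. Among them, Pde6g was called with batch means, without a filter and on centred log2 values. No paired analysis of the arms was possible because the arms of a tissue share no replicate number. Arrays of different tissues may share animals, which the labels do not state, and the tissue comparison was not paired. Signal over background limits the 11 members below the filter.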
